A study of Mus musculus with 4 samples.

Results

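Glycolysis and the transcriptional response to low oxygen were followed through 35 genes, of 32285 listed in the files, in cells sorted from mouse hearts. The genes were picked by symbol for their place in these pathways, and all 35 were found. There were 17 glycolytic enzymes, 7 transporters and flux regulators, and 11 hypoxia response genes. Hearts of adult mice were digested and sorted for CD64+ phagocytes (CD45+, CD11b+, Ly6G negative, Ly6C low), and 10000 cells per group were loaded for droplet RNA sequencing. The 4 libraries were 1 per group, each pooling 5 mice of mixed sex, and strain was not given in the sources used here. Carboplatin AngII/PE mice had carboplatin, a DNA-crosslinking platinum drug, at 45 mg/kg, 2 injections a week for 2 weeks, then 4 weeks of recovery, then a minipump with angiotensin II (1.5 mg/kg per day) and PE (50 mg/kg per day). PBS AngII/PE mice had PBS injections on the same schedule and the same pump. Carboplatin saline mice had the drug, the recovery and a saline pump, and PBS saline mice had PBS and a saline pump. All 4 groups were taken at day 7 of the pump, so every group had repeated injections, a recovery period and an implanted pump.

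Glycolysis turns glucose into pyruvate in the cytosol: hexokinases trap glucose, phosphofructokinase sets the pace, and lactate dehydrogenase disposes of pyruvate as lactate when mitochondria do not take it. In low oxygen, prolyl hydroxylases of the Egln family stop marking hypoxia-inducible factor for destruction, and the factor switches on most glycolytic enzymes, glucose transporters and targets such as Bnip3, Ndrg1 and Adm. Inflammatory macrophages are known to lean on glycolysis more than resident tissue macrophages do, and endothelial cells make much of their energy by it, with Pfkfb3 as a control point.

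Promoters of 5 genes are shown because the levels of these genes carry the results: Pgk1 and Ldha as enzymes that were higher under AngII/PE in endothelial cells, Ankrd37 as a target that was high in those cells, and Pfkfb3 and P4ha1 as genes that were lower under AngII/PE in macrophages after PBS. Each window runs from 250 bases before to 50 bases after a RefSeq gene start (GRCm38.p6), read 5′ to 3′ on the gene's strand. Capitals mark ACGTG and GCGTG on either strand, the core of the hypoxia response element. CACGTG holds ACGTG on both strands and so counts in both. The windows are chrX:106186850-106187149, plus strand (Pgk1), chr7:46845554-46845853, plus strand (Ldha), chr8:45999801-46000100, minus strand (Ankrd37), chr2:11553880-11554179, minus strand (Pfkfb3) and chr10:59323046-59323345, plus strand (P4ha1). Ldha and Pfkfb3 each had 2 windows, of which the first is shown. The starts used for Ldha, Ankrd37 and Pfkfb3 lie inside the longer genes of the GENCODE annotation, not at their 5′ ends.
Pgk1: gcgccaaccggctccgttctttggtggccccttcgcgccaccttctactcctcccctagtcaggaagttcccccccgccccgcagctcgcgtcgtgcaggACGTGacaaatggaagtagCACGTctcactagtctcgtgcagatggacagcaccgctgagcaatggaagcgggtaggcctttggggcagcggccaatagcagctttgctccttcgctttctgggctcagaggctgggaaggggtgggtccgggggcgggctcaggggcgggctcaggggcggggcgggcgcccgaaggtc
Ldha: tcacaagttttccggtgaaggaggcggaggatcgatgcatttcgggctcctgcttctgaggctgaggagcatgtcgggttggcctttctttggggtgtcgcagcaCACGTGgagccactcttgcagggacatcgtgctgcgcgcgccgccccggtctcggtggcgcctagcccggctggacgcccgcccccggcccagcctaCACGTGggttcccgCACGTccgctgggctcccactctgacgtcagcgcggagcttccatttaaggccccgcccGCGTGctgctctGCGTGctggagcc
Ankrd37: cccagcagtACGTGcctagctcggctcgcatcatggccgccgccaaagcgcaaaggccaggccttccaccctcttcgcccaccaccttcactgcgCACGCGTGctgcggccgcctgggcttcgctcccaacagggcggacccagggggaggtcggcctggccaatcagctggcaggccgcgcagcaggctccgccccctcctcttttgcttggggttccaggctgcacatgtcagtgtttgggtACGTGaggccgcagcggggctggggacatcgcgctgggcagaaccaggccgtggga
Pfkfb3: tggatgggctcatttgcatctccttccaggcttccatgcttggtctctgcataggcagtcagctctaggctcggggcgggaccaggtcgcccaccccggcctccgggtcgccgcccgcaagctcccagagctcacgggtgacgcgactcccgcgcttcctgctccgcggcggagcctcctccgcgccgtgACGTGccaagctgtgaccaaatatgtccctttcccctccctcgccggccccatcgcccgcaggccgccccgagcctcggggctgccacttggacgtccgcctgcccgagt
P4ha1: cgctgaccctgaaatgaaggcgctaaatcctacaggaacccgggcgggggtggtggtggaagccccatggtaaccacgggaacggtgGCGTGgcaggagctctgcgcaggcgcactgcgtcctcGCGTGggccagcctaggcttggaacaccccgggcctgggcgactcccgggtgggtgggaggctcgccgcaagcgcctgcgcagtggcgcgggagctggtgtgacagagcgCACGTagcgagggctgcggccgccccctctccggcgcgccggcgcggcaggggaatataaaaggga
ACGTG occurred 2 times in the Pgk1 window, 5 times in Ldha, 2 times in Ankrd37, 1 time in Pfkfb3 and 1 time in P4ha1. Windows were found for 32 of the 35 genes, 46 windows in all. ACGTG was present in 56.5% of them and in 19.6% of all 32817 RefSeq windows of the same length, GCGTG in 58.7% and 32.4%, and either core in 84.8% and 43.8%. Among the hypoxia response genes, 10 of 10 windows held a core, among the enzymes 22 of 28, and among the transporters and regulators 7 of 8. A match describes the letters only. The core was in all 5 windows shown, those of the genes that were lower under AngII/PE included.

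The filters the submitters state kept 17312 of 27968 barcodes, 3484 to 5669 per library, with 39630235 to 72271962 UMIs. Clusters were named from marker genes, so the classes are macrophage-like, dendritic-like, endothelial-like and fibroblast-like cells, shortened to macrophages, dendritic cells, endothelial cells and fibroblasts, and they are not the authors' annotation. Of each list, 7 of 10 macrophage, 7 of 7 dendritic (cDC2), 10 of 10 endothelial and 8 of 8 fibroblast markers lay at least 2-fold above all other cells. There were 3923, 2144, 1023 and 1958 macrophages in carboplatin AngII/PE, PBS AngII/PE, carboplatin saline and PBS saline, 121, 158, 142 and 197 dendritic cells, 318, 280, 455 and 543 endothelial cells and 92, 115, 70 and 75 fibroblasts. Endothelial cells and fibroblasts lie outside the sorted gate, and the design text says that the authors removed such cells. A further 16.0%, 23.8%, 33.4% and 27.3% of kept cells, in the same order, carried macrophage markers at the lenient limit given below but were left unnamed. Libraries shared 9 to 17 barcodes in pairs. With 1 library per group there was no replicate check and no test, so each difference is between libraries, and every interval (95%, exact) covers counting error only. Levels are UMIs summed over a class and library, scaled to the total of that class and library (CPM). A gene was compared where it averaged at least 10 CPM and had at least 100 UMIs in the class, and it was counted as higher or lower past 1.5-fold. Fewer cells using a gene and less RNA per cell cannot be told apart in such sums. Where libraries are said not to overlap between pumps, or to lie above or below one another, that describes their order only. The share of all genes compared that had the same order was not counted, nor was the share with a ratio above 1.

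The cell classes differed in which genes of the pathway they held. Most hypoxia response genes were higher in endothelial cells than in macrophages, Pfkp and Hk2 were higher in dendritic cells, and Pfkfb3 and Pfkfb4 were lower in endothelial cells and fibroblasts. Summed over the 11 hypoxia response genes, endothelial cells held 1155 CPM in carboplatin AngII/PE, 1270.0 CPM in PBS AngII/PE, 966 CPM in carboplatin saline and 1122 CPM in PBS saline, against 523, 505, 453 and 465 CPM in macrophages in the same order. Of 10 such genes compared, 6 were at least 1.5-fold higher in endothelial cells than in macrophages in each of the 4 libraries and none was lower. Over all compared members the counts were 9 of 32 higher and 8 lower, against 24.1% and 16.3% of all genes. The 6 were Egln1, Bnip3, Bnip3l, Ndrg1, Ankrd37 and Adm. Ndrg1, a stress-responsive gene known as a hypoxia target, had 182 CPM in the carboplatin AngII/PE library, 244 CPM in PBS AngII/PE, 174 CPM in carboplatin saline and 199.7 CPM in PBS saline in endothelial cells. In macrophages it had 25.4, 22.6, 7.95 and 4.99 CPM in the same order, a ratio of endothelial cells to macrophages of 7.18, 10.8, 21.8 and 40. All 4 endothelial values lay above all 4 macrophage values, and the ratio was larger under saline, where the macrophage values were lower. The Ndrg1 ratio to macrophages was also larger under saline in dendritic cells (1.36, 1.59, 4.09 and 5.90) and fibroblasts (0.999, 1.07, 4.54 and 10.2). Ankrd37, an ankyrin repeat protein, was 18.4, 18.4, 9.99 and 8.28 times and Egln1, the main oxygen-sensing prolyl hydroxylase, 4.13, 4.66, 5.16 and 5.76 times the macrophage level. Adm, which encodes the vasodilator peptide adrenomedullin, stood at 28.0, 31.7, 27.2 and 17 CPM in endothelial cells and 24.1, 39.5, 79.6 and 58.2 CPM in fibroblasts. In macrophages it had 14, 11, 27 and 47 UMIs in all, too few to describe its spread over cells. Hk1, the widely used hexokinase, Pfkm, the muscle-type phosphofructokinase, and Ldhb, the lactate dehydrogenase that favours pyruvate, were also higher in endothelial cells. The lower members were Hk2, Hk3, Tpi1, Eno1, Slc2a3, Slc16a3, Pfkfb3 and Pfkfb4. Pfkfb3, which makes the activator of phosphofructokinase, was 0.468, 0.349, 0.423 and 0.483 times the macrophage level.

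Dendritic cells stood out for isoforms of the early steps. Pfkp, the platelet-type phosphofructokinase, had 299.8 CPM in the carboplatin AngII/PE library, 265 CPM in PBS AngII/PE, 265 CPM in carboplatin saline and 229 CPM in PBS saline in dendritic cells. In macrophages it had 40.9, 43.9, 55.3 and 39.7 CPM, so the dendritic level was 7.33, 6.05, 4.79 and 5.77 times as high. Every dendritic value lay above every macrophage value. At 2000 UMIs per cell, 39.5%, 38.9%, 35.9% and 33.5% of dendritic cells and 6.62%, 7.93%, 9.11% and 7.90% of macrophages held a Pfkp UMI, and without thinning 83.5%, 77.2%, 78.9% and 75.6% and 36.6%, 37.7%, 45.6% and 35.4%. Median depths were 16792, 15349, 16388.5 and 20128 UMIs in dendritic cells and 13997, 14854, 16355 and 13561 UMIs in macrophages. Cells under 2000 UMIs were left out of thinned shares: 23, 14, 2 and 9 macrophages, 2, 1, 0 and 0 dendritic cells, and 19, 8, 50 and 61 endothelial cells. Hk2, the inducible hexokinase, was 1.84, 1.64, 1.69 and 1.6 times the macrophage level, whereas Hk3, a hexokinase of myeloid cells, was 0.135, 0.341, 0.662 and 0.324 times. Aldoc, an aldolase, and Slc2a3, a high-affinity glucose transporter, were the other members higher in all 4 libraries, and P4ha1 was lower. The counts were 4 higher and 2 lower of 29, against 7.82% and 8.9% of all genes. In fibroblasts 2 of 29 were higher than in macrophages (Ldhb and Adm) and 9 lower, among them 5 of the 6 compared transporters and regulators, against 22.8% and 17.6% of all genes. The other members lower in fibroblasts were Hk3, Gpi1, Pfkl and Eno1. The classes were cut from clusters of the same cells, so these class differences are descriptions.

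**Figure D1:**
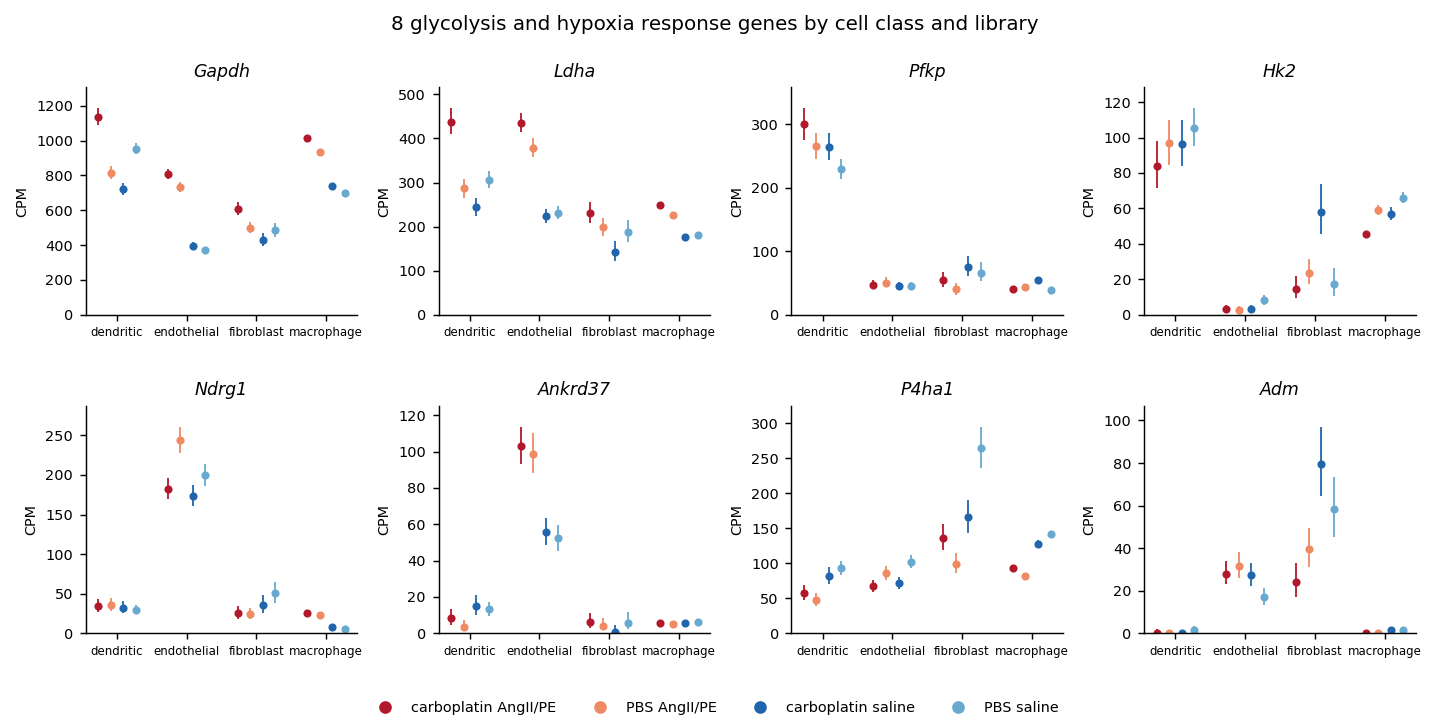
CPM (linear axes from 0) of 8 members in the 4 cell classes, 1 point per library with its exact Poisson 95% interval. Ankrd37 and Ndrg1 stood highest in endothelial cells, Pfkp and Hk2 in dendritic cells, and Adm stayed at or under 1.67 CPM in macrophages and dendritic cells.

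Under AngII/PE, macrophage RNA held more of the 17 enzymes in sum, and less of Pfkfb3, Pfkfb4 and Slc2a3, which act before or at the upper steps. The 17 enzymes summed to 3088 (3074 to 3103) CPM in carboplatin AngII/PE, 2895 (2877 to 2914) CPM in PBS AngII/PE, 2307 (2284 to 2329.6) CPM in carboplatin saline and 2289 (2271 to 2307) CPM in PBS saline. Both AngII/PE libraries lay above both saline libraries, and the resident-like cluster that held most saline macrophages held few under AngII/PE. Of 14 enzymes compared, 4 were at least 1.5-fold higher after carboplatin (Tpi1, Pgk1, Pgam1 and Pkm) and 1 after PBS (Pgam1), and none was lower in either comparison. Their median log2 ratio, AngII/PE over saline, was 0.43 after carboplatin and 0.36 after PBS, against 0.037 and 0.0031 over all 8492 genes compared. Over the 27 compared members, 6 were higher and 2 lower after carboplatin, where 7.55% and 7.48% of all genes were. After PBS 2 were higher and 3 lower, where 8.13% and 8.84% of all genes were.

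Pgam1, the phosphoglycerate mutase (chr19:41911923-41918660, plus strand in mm10), had 155 CPM in the carboplatin AngII/PE library, 145 CPM in PBS AngII/PE, 87.1 CPM in carboplatin saline and 88.4 CPM in PBS saline. Both AngII/PE libraries were above both saline libraries, with ratios of 1.78 (95% interval 1.68 to 1.88) after carboplatin and 1.65 (1.57 to 1.73) after PBS. Pkm, the pyruvate kinase that ends the chain, had 353 and 325 CPM under AngII/PE (carboplatin, then PBS), against 215 and 224 CPM under saline in the same order. Its ratios were 1.64 (1.59 to 1.70) after carboplatin and 1.45 (1.40 to 1.50) after PBS, so only the pair after carboplatin passed 1.5-fold. Tpi1, triosephosphate isomerase, had 213 and 196 CPM under AngII/PE (carboplatin, then PBS), against 140.4 and 138 CPM under saline in the same order, ratios of 1.52 (1.45 to 1.58) and 1.42 (1.36 to 1.48). Pgk1, phosphoglycerate kinase, had 94.7 and 89.5 CPM under AngII/PE (carboplatin, then PBS), against 59.5 and 68.8 CPM under saline in the same order. The ratios of Pgk1 were 1.59 (1.49 to 1.70) and 1.30 (1.23 to 1.38), and its lowest value was in the carboplatin saline library. Gapdh (chr6:125161715-125166467, minus strand) made up 30.6% to 32.8% of the enzyme UMIs and had 1013 CPM in the carboplatin AngII/PE library, 932 CPM in PBS AngII/PE, 739.9 CPM in carboplatin saline and 701 CPM in PBS saline. Its ratios of 1.37 (1.34 to 1.40) and 1.33 (1.30 to 1.35) stayed short of 1.5-fold, although the libraries did not overlap between pumps. Aldolase Aldoa (1.46 and 1.33), lactate dehydrogenase Ldha (1.42 and 1.25), the liver-type phosphofructokinase Pfkl (1.33 and 1.35) and the isomerase Gpi1 (1.24 and 1.26) likewise had ratios above 1 but under 1.5.

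The hexokinases, Pfkp and Eno1 did not have ratios above 1 in both comparisons. The ratios of the hexokinases were 0.873 after carboplatin and 0.924 after PBS for Hk1, 0.80 and 0.894 for Hk2, and 0.776 and 0.739 for Hk3, all within 1.5-fold. Pfkp had 40.9 and 43.9 CPM under AngII/PE (carboplatin, then PBS), against 55.3 and 39.7 CPM under saline in the same order, with the carboplatin saline library above the other 3. Eno1, the enolase, had ratios of 0.934 (0.898 to 0.972) and 0.792 (0.762 to 0.822). Its value is uncertain, because its near-identical copy Eno1b took 17 and 21.3 CPM under AngII/PE against 11.5 and 5.49 CPM under saline. How reads that match both genes were counted was not examined. With both added, the ratios were 0.965 (0.929 to 1.003) and 0.872 (0.841 to 0.904). The sum does not restore reads left uncounted, and such reads were not examined for the other enzymes.

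The transporters and flux regulators split. Pfkfb3 (chr2:11471433-11554077, minus strand) had 65.8 CPM in the carboplatin AngII/PE library, 74.7 CPM in PBS AngII/PE, 125 CPM in carboplatin saline and 131 CPM in PBS saline in macrophages. Both AngII/PE libraries lay below both saline libraries, with ratios of 0.526 (0.499 to 0.555) after carboplatin and 0.572 (0.543 to 0.602) after PBS. Pfkfb4, its relative, had 50.7 and 51.2 CPM under AngII/PE (carboplatin, then PBS), against 79.7 and 72.0 CPM under saline in the same order, ratios of 0.636 (0.596 to 0.679) and 0.712 (0.666 to 0.760). Slc2a3 (chr6:122727809-122801640, minus strand) had 16.3 and 15.1 CPM under AngII/PE (carboplatin, then PBS), against 24.0 and 27.3 CPM under saline in the same order, ratios of 0.682 (0.607 to 0.768) and 0.552 (0.491 to 0.619). For all 3 genes the libraries did not overlap between pumps, an order that was not counted over all genes. Each passed 1.5-fold lower in at least 1 of the comparisons. Ratios of the other 3 lay between 1 and 1.5 in both comparisons. These were Slc2a1, the basal glucose transporter, at 1.11 after carboplatin and 1.21 after PBS, Slc16a3, a lactate exporter, at 1.35 and 1.24, and Pdk1, which keeps pyruvate out of the mitochondria, at 1.27 and 1.33. Summed over the 7 genes, macrophages held 212 CPM in carboplatin AngII/PE, 224 CPM in PBS AngII/PE, 295 CPM in carboplatin saline and 298 CPM in PBS saline.

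Among the hypoxia response genes, Ndrg1 stood apart. Ndrg1 (chr15:66929318-66969640, minus strand) had 25.4 CPM in the carboplatin AngII/PE library, 22.6 CPM in PBS AngII/PE, 7.95 CPM in carboplatin saline and 4.99 CPM in PBS saline, from 1434, 729, 136 and 140 UMIs. Both AngII/PE values were above both saline values, with ratios of 3.20 (2.68 to 3.84) after carboplatin and 4.53 (3.77 to 5.47) after PBS. At 2000 UMIs per cell, 4.79%, 3.47%, 1.18% and 0.513% of macrophages held a Ndrg1 UMI, and without thinning 22.4%, 19.6%, 7.62% and 3.88%. Thinned shares in endothelial cells, where the gene was high, were 28.1%, 35.7%, 26.4% and 32.0%. The top 1% of cells held 16.5% of these UMIs in both AngII/PE libraries, against 38.2% (carboplatin) and 52.9% (PBS) under saline, a share that is larger where UMIs are fewer. Bnip3, which marks mitochondria for removal, had 26.4 and 24.9 CPM under AngII/PE (carboplatin, then PBS), against 17.5 and 17.1 CPM under saline in the same order. Its ratios of 1.51 (1.33 to 1.71) after carboplatin and 1.45 (1.29 to 1.63) after PBS put the pair after carboplatin just past 1.5-fold. Its relative Bnip3l had 1.36 and 1.45, and the cytokine Mif 1.45 and 1.38. P4ha1, a collagen prolyl hydroxylase (chr10:59323296-59373304, plus strand), had 93.2 and 81.2 CPM under AngII/PE (carboplatin, then PBS), against 128 and 141 CPM under saline in the same order. Both AngII/PE libraries were below both saline libraries, at 0.727 (0.692 to 0.765) and 0.576 (0.548 to 0.605) times, and the pair after PBS passed 1.5-fold. RNA of the factor itself, Hif1a, had 58.6, 65.2, 63.5 and 65.9 CPM and ratios of 0.924 (0.862 to 0.99) and 0.99 (0.930 to 1.05). Egln1 had 1.26 and 1.07. The median over the 7 compared hypoxia response genes was 0.44 after carboplatin and 0.47 after PBS.

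**Figure D2:**
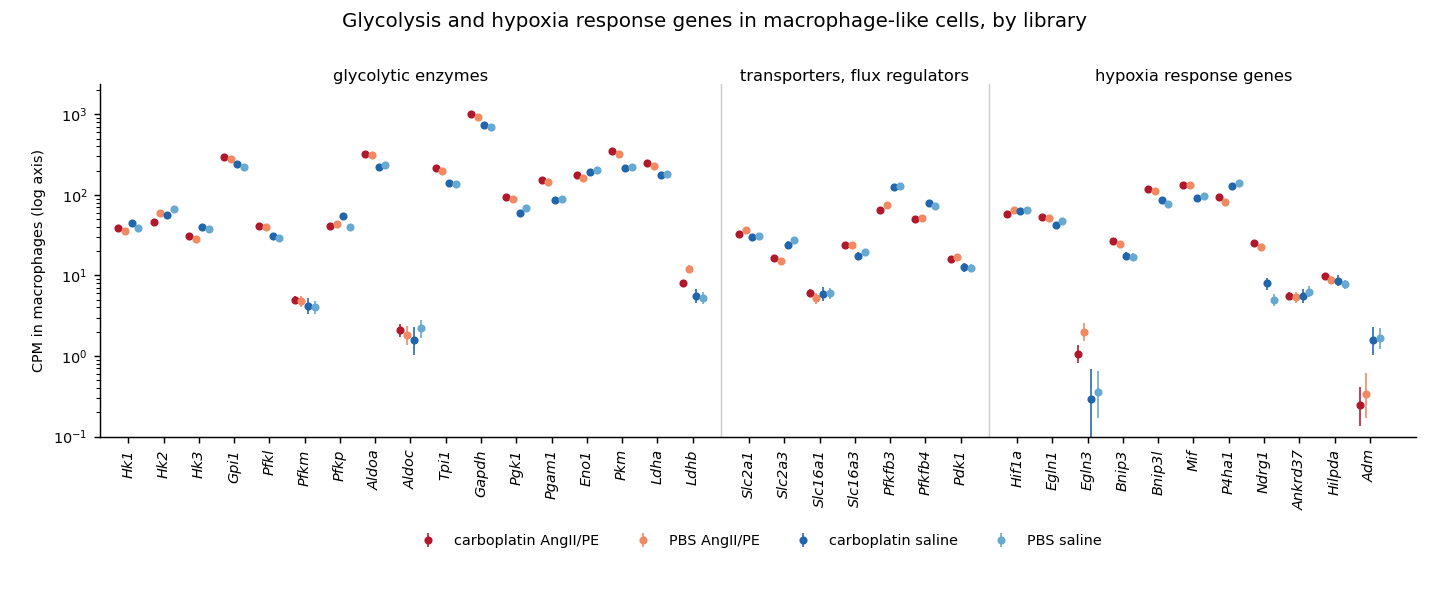
CPM (log axis) of all 35 genes in macrophages, 1 point per library with its exact Poisson 95% interval. From Gpi1 to Ldha the AngII/PE points lie above the saline points except for Pfkp, Aldoc and Eno1, while those of Pfkfb3, Pfkfb4, Slc2a3 and P4ha1 lie below them and Ndrg1 differs the most among the compared members.

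The macrophages of the saline and the AngII/PE libraries fell into different clusters. The resident-like cluster held 1.30% of macrophages in carboplatin AngII/PE and 4.52% in PBS AngII/PE, against 82.9% in carboplatin saline and 91.2% in PBS saline. Under AngII/PE 38.7% (carboplatin) and 27.3% (PBS) of macrophages lay in a cluster with no subset name and 22.9% and 28.1% in one with MHC class II markers. Clusters with inflammatory markers held 23.6% and 25.9%, those with markers of lipid-associated macrophages 8.23% and 9.70%, and those with interferon response genes 5.30% and 4.52%. Only the resident-like and MHC class II clusters had 50 cells or more in all 4 libraries. In the resident-like cluster the enzymes summed to 3279 CPM in carboplatin AngII/PE, from 51 cells, 2193 in PBS AngII/PE, from 97 cells, 2165 in carboplatin saline and 2171 in PBS saline. The carboplatin AngII/PE value alone stood out. In the MHC class II cluster the sums were 2957, 2592, 2788 and 3902 CPM, the last from 77 cells, which was the highest of the 4.

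Within clusters the enzyme ratios differed from those over all macrophages. Averaged over the clusters with at least 50 cells in both libraries, the median log2 ratio of the 14 enzymes was 0.32 after carboplatin and -0.28 after PBS. After PBS it was 0.031 in the resident-like cluster and -0.59 in the MHC class II cluster, where 0 of 14 lay above 0. After carboplatin it was 0.53 and 0.027. The 7 hypoxia response genes were at -0.68 in the MHC class II cluster after PBS, where 3 of 7 lay above 0, with 77 cells in PBS saline. No median over all genes was taken within clusters, so a shift of the enzymes and one of that small reference cannot be told apart. Pgam1 had ratios above 1 in the resident-like cluster, 1.77 (1.43 to 2.16) after carboplatin and 1.44 (1.21 to 1.70) after PBS. In the MHC class II cluster its ratios were 1.39 (1.19 to 1.65) and 0.673 (0.581 to 0.783). Ndrg1 had 15 UMIs in 51 cells and 11 UMIs in 97 cells of the resident-like cluster under AngII/PE, against 55 and 56 UMIs under saline. Those gave ratios of 4.94 (2.59 to 8.87) after carboplatin and 3.88 (1.83 to 7.48) after PBS. In the MHC class II cluster its ratios were 1.01 (0.724 to 1.45) and 0.433 (0.318 to 0.596). Pfkfb3 was lower in both clusters of both comparisons, at 0.623 (0.476 to 0.803) and 0.546 (0.439 to 0.671) in the resident-like cluster and 0.652 (0.552 to 0.774) and 0.573 (0.486 to 0.679) in the MHC class II cluster.

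P4ha1 had ratios of 0.556 (0.452 to 0.677) and 0.626 (0.524 to 0.751) in these 2 clusters after PBS but 1.01 (0.823 to 1.23) and 1.04 (0.872 to 1.26) after carboplatin. Under AngII/PE the lipid-associated cluster had the highest levels of Aldoa, Pgam1 and Pkm among the 6 clusters in both libraries, with Pgam1 at 214 and 228 CPM against 137 to 156 and 113 to 154 CPM elsewhere. It also had the highest Ndrg1, 46.9 and 41.4 CPM. Immediate-early and dissociation genes, which respond to tissue handling, differed between pumps as well. Their 15 genes summed to 8272, 8199.5, 10562 and 12965 CPM in carboplatin AngII/PE, PBS AngII/PE, carboplatin saline and PBS saline macrophages, with a median log2 ratio of -0.35 after carboplatin and -0.62 after PBS. Female-called cells, by Xist and Y-linked UMIs, were 49.5%, 28.9%, 55.2% and 45.3% of called macrophages. Among other cells' markers, the 5 erythroid genes summed to 13.7, 47.0, 15.5 and 7.34 CPM in macrophages and the 7 cDC2 genes to 121, 155, 344 and 281 CPM, none of either list at 0. The 97 ribosomal protein genes summed to 107090.0, 113655, 96022 and 85299 CPM and the 13 mitochondrially encoded genes to 28792, 30660.4, 37533 and 29941 CPM. The part of these measures and of sex in the pump differences was not tested.

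**Figure D3:**
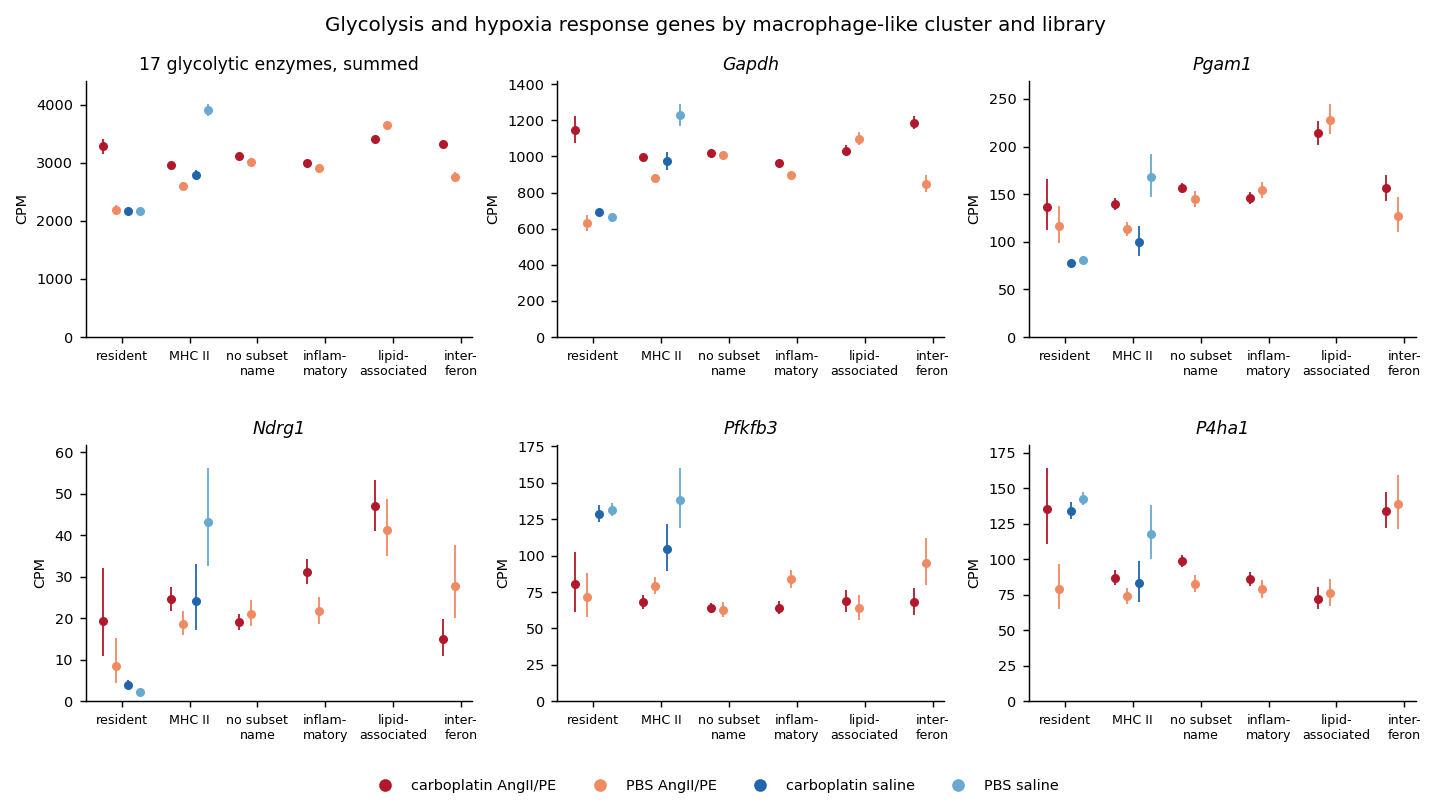
CPM (linear axes from 0) of the 17 enzymes summed and of 5 genes in each macrophage cluster with at least 50 cells in a library, 1 point per library with its exact Poisson 95% interval. In the MHC class II cluster the PBS saline point is the highest for the enzyme sum, and Pfkfb3 is lower under AngII/PE in both clusters present under both pumps.

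Neighbouring pathways were read from lists of 47 other glycolysis, glycogen and pyruvate genes, 47 other hypoxia pathway genes and 8 pentose phosphate genes. In macrophages 21 of the 47 other glycolysis genes were compared, and 2 were higher and none lower after carboplatin, 2 higher and 1 lower after PBS, where 7.55% higher and 7.48% lower and then 8.13% and 8.84% of all genes were. The medians were 0.14 and 0.11. Pygl, the glycogen phosphorylase that frees glucose units, had ratios of 2.84 (2.44 to 3.32) after carboplatin and 5.11 (4.33 to 6.06) after PBS. The intracellular sugar transporter Slc2a8 had 1.65 (1.45 to 1.89) and 1.75 (1.55 to 1.98). Slc16a7, a pyruvate transporter, had 0.583 (0.554 to 0.613) after PBS, and Pgm1, a phosphoglucomutase, 1.44 (1.22 to 1.72) after carboplatin. Of 25 other hypoxia genes, 3 were higher and 3 lower after carboplatin and 5 higher and 3 lower after PBS, beside the same shares of all genes, with medians of 0.29 and 0.012. Tfrc, the transferrin receptor, was at 0.271 (0.237 to 0.308) and 0.131 (0.112 to 0.152), and Ddit4, an inhibitor of growth signalling, at 2.49 (2.02 to 3.12) and 3.87 (3.28 to 4.59). The chemokine receptor Cxcr4 was at 2.31 (2.11 to 2.53) after carboplatin and Selenbp1 at 0.338 (0.309 to 0.370) after PBS. All 8 pentose phosphate genes were compared, and 6 of 8 had ratios above 1 in each comparison. Their medians were 0.47 after carboplatin and 0.33 after PBS, against 0.037 and 0.0031 over all genes. Pgls alone passed 1.5-fold, in both, at 1.58 (1.50 to 1.67) and 1.73 (1.64 to 1.82), beside the same shares of all genes. Taldo1 and Tkt, which shuttle sugars back to glycolysis, did not. Taldo1 was at 1.49 (1.43 to 1.55) and 1.49 (1.44 to 1.55), and Tkt at 1.40 (1.34 to 1.47) and 1.37 (1.32 to 1.43).

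Between carboplatin and PBS macrophages, few of the compared members differed past 1.5-fold, and few of all genes did. Under saline the median log2 ratio, carboplatin over PBS, was 0.00035 over 14 enzymes and -0.053 over 7 hypoxia response genes, against -0.037 over all genes. Ndrg1 alone of the 27 compared members passed 1.5-fold, where 1.67% of all genes were higher and 2.15% lower. Its ratio was 1.59 (1.25 to 2.03), from 7.95 CPM in carboplatin saline and 4.99 CPM in PBS saline. Averaged within clusters the log2 ratio of Ndrg1 was -0.0040, with 1.78 (1.20 to 2.62) in the resident-like and 0.560 (0.362 to 0.858) in the MHC class II cluster. Pfkp came next, at 55.3 CPM in carboplatin saline and 39.7 CPM in PBS saline, a ratio of 1.39 (1.27 to 1.52), and it was 1.35 (1.22 to 1.50) in the resident-like cluster. The enzyme median under saline was -0.028 in the resident-like cluster and -0.42 in the MHC class II cluster, the latter from 87 and 77 cells. The hypoxia medians there were -0.091 and -0.51. Under AngII/PE no member passed 1.5-fold, where 0.4% of all genes were higher and 0.989% lower. The medians were 0.094 for enzymes and 0.083 for hypoxia response genes, against 0.0049. By cluster the enzyme median ran from -0.094 (lipid-associated) to 0.52 (resident-like, 51 and 97 cells), and the hypoxia median from -0.057 to 0.11. Hk2, at 45.7 CPM in carboplatin AngII/PE and 59.0 CPM in PBS AngII/PE, had the ratio farthest from 1 among the compared enzymes, 0.774 (0.729 to 0.822). Enzyme medians under saline went opposite ways in the sexes, at 0.28 for female-called macrophages but -0.23 for male-called macrophages. The immediate-early list had a median of -0.29 under saline, with 0 of 15 genes above 0, and -0.0052 under AngII/PE.

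**Figure D4:**
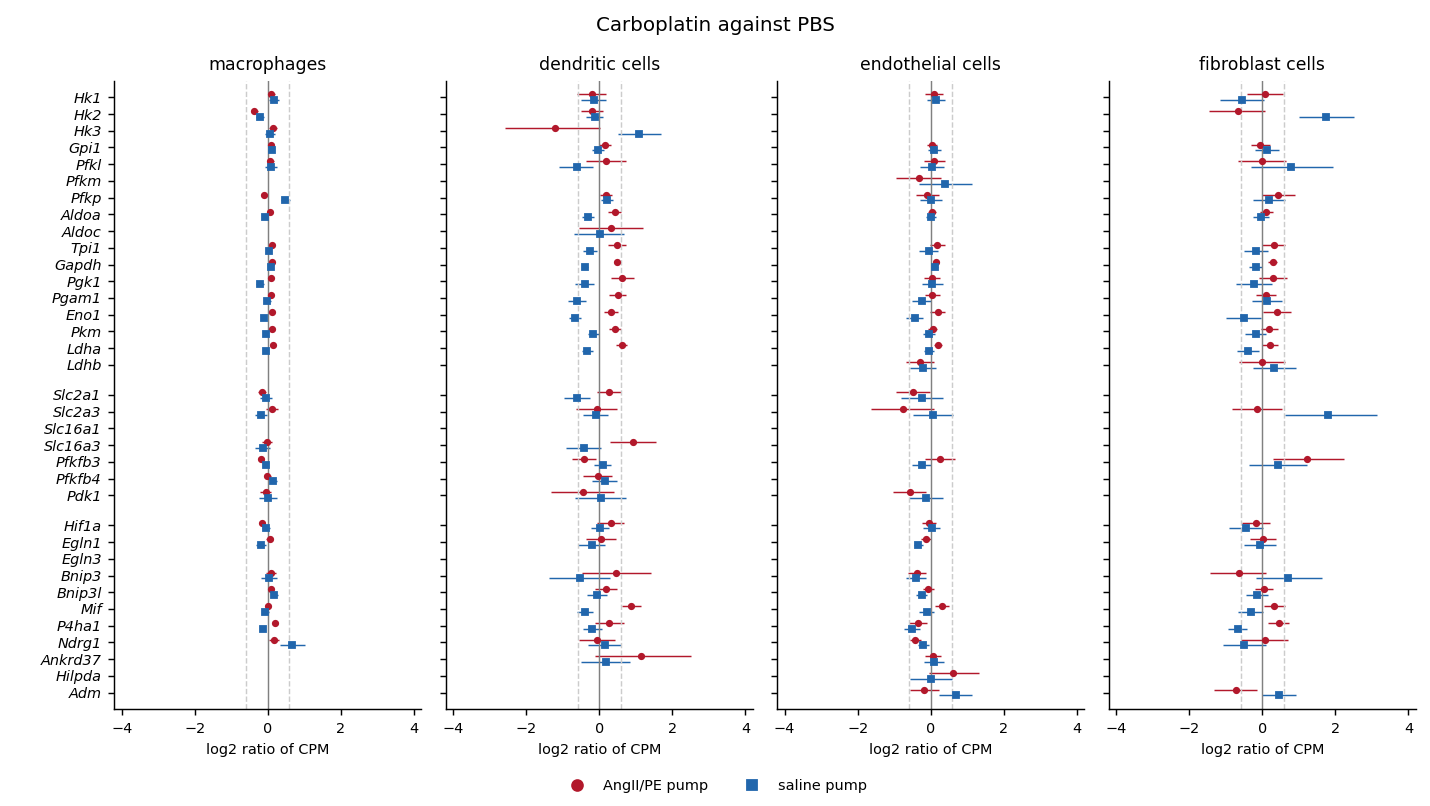
Log2 ratio of CPM, carboplatin over PBS, for each compared gene in 4 cell classes, with exact 95% intervals (red circles, AngII/PE pump, blue squares, saline pump, dashed lines at 1.5-fold). Macrophage points other than Ndrg1 under saline sit inside the dashed lines, and in dendritic cells most enzymes lie right of 0 under AngII/PE and left of it under saline.

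Endothelial cells held more RNA of most glycolytic enzymes under AngII/PE than under saline. Their 17 enzymes summed to 2842 (2789 to 2896) CPM in carboplatin AngII/PE, 2656 (2601 to 2712) CPM in PBS AngII/PE, 1626 (1586 to 1667) CPM in carboplatin saline and 1637 (1598 to 1677) CPM in PBS saline. Of 14 compared enzymes 9 were at least 1.5-fold higher after carboplatin and 8 after PBS, and none was lower, with median log2 ratios of 0.71 and 0.62 against -0.019 and -0.031 over all 9300 genes. Among the 28 compared members 11 were higher and 2 lower in each comparison. The background was 12.6% higher and 11.4% lower after carboplatin, and 10.8% and 11.4% after PBS. Gapdh had 808 CPM in the carboplatin AngII/PE library, 732 CPM in PBS AngII/PE, 398 CPM in carboplatin saline and 370.2 CPM in PBS saline. Both AngII/PE values were above both saline values, with ratios of 2.03 (1.91 to 2.16) after carboplatin and 1.98 (1.85 to 2.11) after PBS. At 2000 UMIs per cell 70.6%, 62.9%, 44.4% and 43.8% of endothelial cells held a Gapdh UMI, and without thinning 88.7%, 87.9%, 74.5% and 69.1%. Pkm had 301 and 290.5 CPM under AngII/PE (carboplatin, then PBS), against 143 and 149 CPM under saline in the same order, ratios of 2.10 (1.90 to 2.33) and 1.96 (1.77 to 2.17). Ldha, which makes lactate, had 436 and 379 CPM under AngII/PE (carboplatin, then PBS), against 224 and 231 CPM under saline in the same order, ratios of 1.95 (1.79 to 2.12) and 1.64 (1.51 to 1.79). In both comparisons Gpi1, Tpi1, Gapdh, Pgk1, Pgam1, Pkm and Ldha passed 1.5-fold, Pfkl and Eno1 did so after carboplatin, and Pfkm did after PBS. Aldoa had ratios above 1 but short of 1.5-fold in both comparisons. Hk1, Pfkp and Ldhb did not pass either, with ratios of 1.03, 1.05 and 0.896 after carboplatin and 1.07, 1.13 and 0.944 after PBS. The enzyme medians ranged from 0.64 to 0.80 after carboplatin and from 0.52 to 0.72 after PBS over the processing alternatives.

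Pfkfb3 and Slc2a3 were lower under AngII/PE in endothelial cells, as they were in macrophages, where Slc2a3 passed 1.5-fold only after PBS. Pfkfb3 had 30.8 and 26.1 CPM under AngII/PE (carboplatin, then PBS), against 52.9 and 63.1 CPM under saline in the same order, ratios of 0.583 (0.461 to 0.734) and 0.413 (0.320 to 0.529). Slc2a3 had 21, 31, 60 and 60 UMIs and ratios of 0.353 (0.204 to 0.589) and 0.628 (0.394 to 0.985), while Slc2a1 had 1.54 (1.06 to 2.26) and 1.84 (1.32 to 2.60). Both AngII/PE libraries were below both saline libraries for Pfkfb3 and Slc2a3 and above them for Slc2a1. Among hypoxia response genes, Ankrd37 (chr8:45996902-46005707, minus strand) had 103 CPM in the carboplatin AngII/PE library, 98.8 CPM in PBS AngII/PE, 55.5 CPM in carboplatin saline and 52.2 CPM in PBS saline. The pump separated the libraries without overlap, with ratios of 1.86 (1.57 to 2.20) and 1.89 (1.59 to 2.26). Hif1a had 117 and 121 CPM under AngII/PE (carboplatin, then PBS), against 83.5 and 82.3 CPM under saline in the same order, ratios of 1.40 and 1.47, and Bnip3 had 1.46 and 1.43. Adm was at 1.03 (0.779 to 1.36) after carboplatin and 1.87 (1.37 to 2.57) after PBS, its lowest value being 17 CPM in PBS saline. Egln1, Bnip3l, P4ha1, Ndrg1, Hilpda and Mif stayed within 1.5-fold in both comparisons. The hypoxia medians, 0.16 and 0.19 over 10 genes, were lower than the enzyme medians. Egln3, an inducible prolyl hydroxylase below the minimum level, had 39, 65, 18 and 18 UMIs.

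Other measures of these cells differed between pumps as well. Endothelial cells had median depths of 10828.5 and 10407 UMIs under AngII/PE, against 7747 and 6345 UMIs under saline. The 5 erythroid genes summed to 3524, 2397, 978 and 1349 CPM, none at 0, the 8 cardiomyocyte markers to 129, 146, 567 and 560.1 CPM, with 1 at 0 in carboplatin AngII/PE, and the 10 macrophage markers to 1834, 1099, 832 and 1702 CPM, none at 0. Mitochondrially encoded RNA was 41126 and 37438 CPM under AngII/PE (carboplatin, then PBS), against 31850.3 and 27514 CPM under saline, with a median mitochondrial share of 4.08% and 3.53% of a cell's UMIs, against 2.64% and 2.27%. Ribosomal protein RNA was 82848 and 85799.7 CPM under AngII/PE, against 68259 and 68249 CPM under saline. Endothelial markers themselves summed to 22799.8, 22507, 19161 and 17932 CPM. Their part in the enzyme difference was not tested. Between carboplatin and PBS, 1 of the 28 compared members passed 1.5-fold in endothelial cells under saline and 2 did under AngII/PE. Adm was higher under saline at 1.6 (1.17 to 2.20), where 3.18% of all genes were higher and 4.19% lower. Under AngII/PE, Hilpda, which coats lipid droplets, had 1.53 (0.959 to 2.48) and Slc2a3 0.586 (0.320 to 1.05), both with intervals that include 1, against 3.69% higher and 2.68% lower. The enzyme medians were 0.043 under AngII/PE and 0.0061 under saline.

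**Figure D5:**
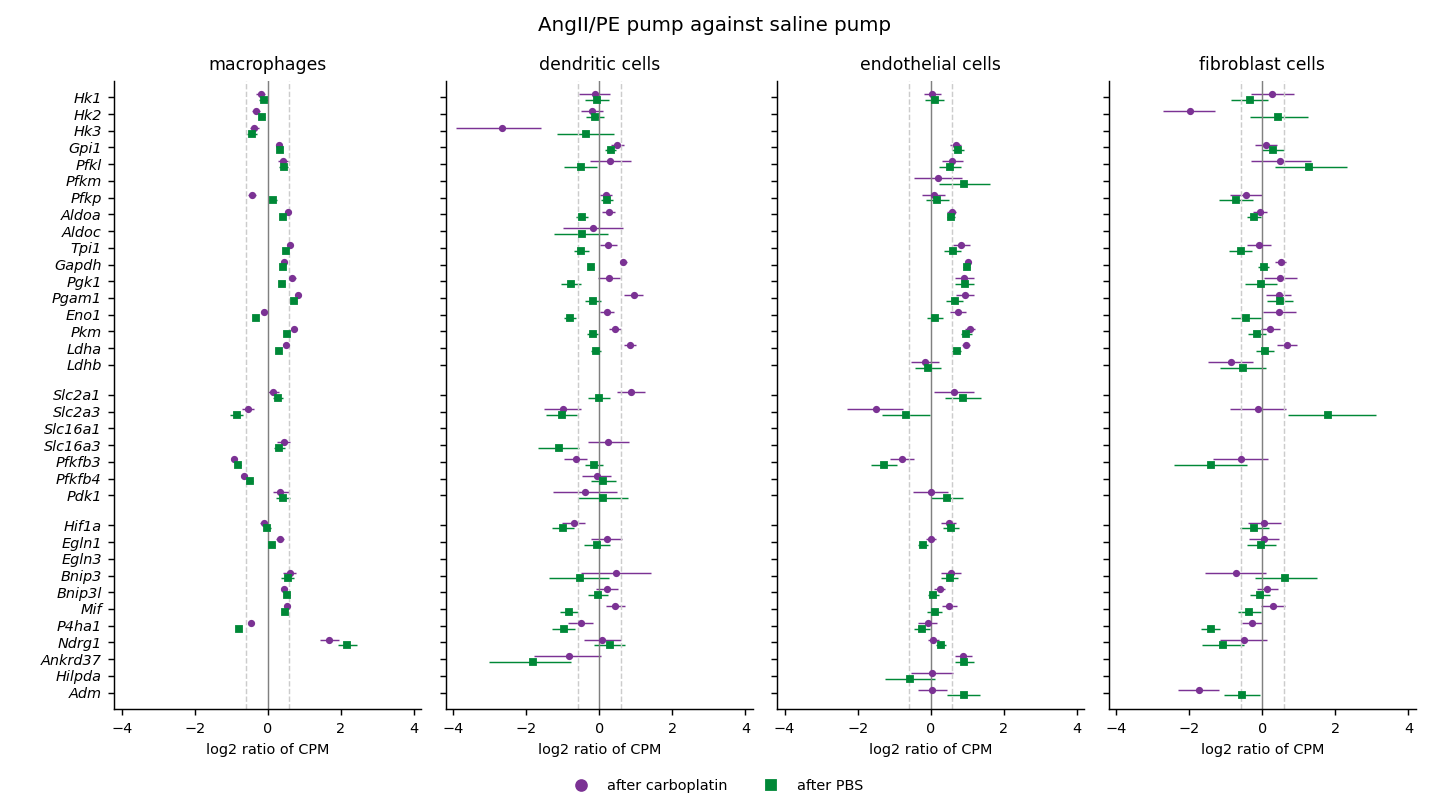
Log2 ratio of CPM, AngII/PE over saline, for each compared gene in 4 cell classes, with exact 95% intervals (purple circles, after carboplatin, green squares, after PBS, dashed lines at 1.5-fold). Endothelial enzymes from Gpi1 to Ldha lie right of 0, Pfkfb3 lies left of 0 in all 4 classes, and of the dendritic enzymes more lie right of 0 after carboplatin than after PBS.

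In dendritic cells the enzyme medians between pumps had opposite signs after carboplatin and after PBS. After carboplatin the enzyme median was 0.25, against -0.080 over all 8264 genes compared, with 11 of 15 ratios above 1. Of the 15 compared enzymes 3 were at least 1.5-fold higher (Gapdh, Pgam1 and Ldha) and Hk3 was lower. After PBS the enzyme median was -0.22, against -0.016 over all genes, with 2 of 15 ratios above 1. There 2 enzymes were lower (Pgk1 and Eno1) and none was higher. Over 29 compared members 4 were higher and 5 lower after carboplatin, where 12.7% and 20.5% of all genes were. After PBS none was higher and 8 were lower, where 8.99% and 9.23% of all genes were. Gapdh had 1138 CPM in the carboplatin AngII/PE library, 815 CPM in PBS AngII/PE, 724 CPM in carboplatin saline and 952 CPM in PBS saline. Its highest value was in carboplatin AngII/PE and its lowest in carboplatin saline, so the pumps overlapped, with ratios of 1.57 (1.47 to 1.68) after carboplatin and 0.857 (0.810 to 0.906) after PBS. Ldha had 438 and 287 CPM under AngII/PE (carboplatin, then PBS), against 245 and 306 CPM under saline in the same order, ratios of 1.79 (1.61 to 2.0) and 0.936 (0.849 to 1.03). Hk3 had 8, 23, 60 and 44 UMIs, a ratio of 0.158 (0.0654 to 0.332) after carboplatin. No difference between these ratios was tested. The 121 to 197 cells per library limit the precision.

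Hif1a in dendritic cells had 66.9 CPM in the carboplatin AngII/PE library, 53.8 CPM in PBS AngII/PE, 108 CPM in carboplatin saline and 107 CPM in PBS saline. Both AngII/PE libraries were below both saline libraries, with ratios of 0.618 (0.495 to 0.768) after carboplatin and 0.505 (0.411 to 0.619) after PBS. At 2000 UMIs per cell 9.24%, 8.92%, 21.8% and 19.3% of dendritic cells held a Hif1a UMI, and without thinning 52.9%, 44.9%, 69.7% and 70.6%. P4ha1 (0.702 after carboplatin and 0.510 after PBS), Slc2a3 (0.504 and 0.494) and Ankrd37 (0.559 and 0.285, from 9 to 47 UMIs a library) were below 1 in both comparisons. Mif had 1.36 after carboplatin and 0.565 after PBS, and Slc16a3 1.19 and 0.467. The hypoxia medians were 0.14 and -0.68 over 8 genes. Slc2a1 was higher after carboplatin, at 1.82 (1.40 to 2.37), and Pfkfb3 lower, at 0.637 (0.512 to 0.791).

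Set between drugs, dendritic enzymes had a median of 0.32 under AngII/PE and -0.25 under saline, carboplatin over PBS, with 12 and 3 of 15 ratios above 1. The medians over all genes were -0.039 and 0.016. Under AngII/PE 5 of 29 members were higher and 1 lower, where 3.7% and 8.12% of all genes were. The higher ones were Pgk1 (1.55), Ldha (1.53), Slc16a3 (1.89), Mif (1.84) and Ankrd37 (2.23), and Hk3 was lower at 0.435 (0.168 to 1.01). Under saline 1 was higher and 4 were lower, where 4.72% and 3.26% were. Hk3 was higher at 2.14 (1.43 to 3.23), and Pfkl (0.651), Pgam1 (0.655), Eno1 (0.629) and Slc2a1 (0.654) were lower. In the dendritic class cDC1-like cells were 2, 4, 13 and 9 of the cells and the 10 macrophage markers summed to 3513, 3319, 4601 and 3879 CPM, none at 0. The dendritic enzymes summed to 3615, 2767, 2638 and 3207 CPM in carboplatin AngII/PE, PBS AngII/PE, carboplatin saline and PBS saline, and mitochondrially encoded RNA to 26566, 32829.6, 33658 and 22863 CPM. The libraries with the higher enzyme sums were those with less mitochondrial RNA, and median mitochondrial shares were 2.41%, 3.36%, 3.07% and 2.06%. The part of these measures was not tested.

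Fibroblasts, the smallest class with 70 to 115 cells a library, had enzyme ratios on both sides of 1. Enzyme medians between pumps were 0.25 after carboplatin and -0.088 after PBS. After carboplatin 1 of 24 compared members was higher and 5 lower, where 13.1% and 16.3% of all genes were. After PBS 3 were higher and 5 lower, where 13.1% and 12.9% were. P4ha1 had 137 CPM in the carboplatin AngII/PE library, 99.6 CPM in PBS AngII/PE, 166 CPM in carboplatin saline and 264 CPM in PBS saline. PBS saline was the highest and PBS AngII/PE the lowest, with ratios of 0.825 (0.678 to 1.00) after carboplatin and 0.377 (0.313 to 0.452) after PBS. Adm had 24.1 and 39.5 CPM under AngII/PE (carboplatin, then PBS), against 79.6 and 58.2 CPM under saline in the same order, ratios of 0.303 (0.203 to 0.444) and 0.679 (0.484 to 0.954), and both AngII/PE values lay below both saline values. Ldha was the higher member after carboplatin, at 1.6 (1.34 to 1.93), and Gapdh was at 1.42 (1.28 to 1.58). Hk2 stood at 14.8, 23.7, 58.3 and 17.5 CPM, from 24, 45, 71 and 21 UMIs, with the carboplatin saline library above the other 3.

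Between drugs, fibroblasts under saline had 4 members higher and 1 lower, where 6.55% and 6.42% of all genes were. Hk2 was at 3.34 (2.03 to 5.72) and Slc2a3 at 3.45 (1.53 to 8.77). Pfkl at 1.73 (0.812 to 3.85) and Bnip3 at 1.64 (0.888 to 3.13) had intervals that include 1, and P4ha1 was lower at 0.627 (0.523 to 0.750). Under AngII/PE 1 was higher and 3 were lower, where 3.42% and 6.62% were. Pfkfb3 was higher at 2.35 (1.22 to 4.69) and Adm lower at 0.610 (0.403 to 0.910). Hk2 at 0.626 (0.365 to 1.05) and Bnip3 at 0.640 (0.372 to 1.08) were lower with intervals that include 1. Enzyme medians were 0.15 under AngII/PE and -0.11 under saline, the latter against -0.019 over all 8040 genes compared. The 15 immediate-early and dissociation genes in fibroblasts summed to 4462, 4323, 9743 and 8715 CPM, with 14 of 15 at least 1.5-fold lower under AngII/PE in both comparisons. Mitochondrially encoded RNA was 33642, 33064, 28819 and 25482 CPM. Female-called cells were 55.6%, 13%, 35.1% and 57.4% of called fibroblasts. The part of any of these in these ratios was not tested.

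The genes left out of the macrophage comparisons for low levels were Pfkm, Aldoc, Ldhb, Slc16a1, Egln3, Ankrd37, Hilpda and Adm. Ldhb had 8.09 and 12.2 CPM under AngII/PE (carboplatin, then PBS), against 5.55 and 5.24 CPM under saline in the same order in macrophages, the AngII/PE values above the saline values. Egln3 had 60 and 64 UMIs under AngII/PE, against 5 and 10 UMIs under saline. Hilpda stood at 9.88, 8.77, 8.65 and 7.77 CPM, Ankrd37 at 5.61, 5.36, 5.55 and 6.31 CPM, Slc16a1, a lactate and pyruvate carrier, at 6.09, 5.24, 5.96 and 5.99 CPM, Pfkm at 4.99, 4.80, 4.21 and 4.06 CPM and Aldoc at 2.09, 1.80, 1.58 and 2.21 CPM. Those 5 differed by under 1.5-fold between pumps. Aldoc had no UMI in fibroblasts in any library, where a count of 0 allows up to 1.86, 1.58, 2.46 and 2.49 CPM.

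Few of the compared members passed 2-fold, and the shares of all genes that did so are given beside them. Between pumps in macrophages Ndrg1 alone did so, in both comparisons, where 1.92% higher and 2.9% lower of all genes did after carboplatin and 2.84% higher and 3.45% lower after PBS. In endothelial cells Gapdh and Pkm were past 2-fold higher and Slc2a3 lower after carboplatin (3.39% higher and 2.41% lower of all genes), and Pfkfb3 was lower after PBS (3.6% higher and 3.29% lower). In dendritic cells Hk3 was lower after carboplatin (3.53% higher and 6.68% lower of all genes), and Slc2a3, Slc16a3 and Ankrd37 were lower after PBS (3.01% higher and 2.89% lower). In fibroblasts Hk2 and Adm were lower after carboplatin (5.15% higher and 6.39% lower of all genes), while after PBS Pfkl and Slc2a3 were higher and Pfkfb3, P4ha1 and Ndrg1 lower (5.8% higher and 4.56% lower). Between carboplatin and PBS no macrophage member passed 2-fold, under AngII/PE (0.0824% higher and 0.459% lower of all genes) or saline (0.412% higher and 0.695% lower). None did in endothelial cells, under AngII/PE (0.581% higher and 0.484% lower) or saline (0.763% higher and 1.22% lower). In dendritic cells Ankrd37 was higher and Hk3 lower under AngII/PE (0.532% higher and 1.44% lower), and Hk3 was higher under saline (0.835% higher and 0.52% lower). In fibroblasts Pfkfb3 was higher under AngII/PE (0.846% higher and 1.29% lower), and Hk2 and Slc2a3 were higher under saline (1.29% higher and 1.42% lower).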

How the data were processed

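UMI counts per gene and cell barcode were taken as deposited, made by the authors with Cell Ranger (7.1.0 per the file headers, version 3 per the labels' protocols) on mm10, with no normalization. The filters in the submitters' notes were applied: between 500 and 7000 genes, under 30000 UMIs, and a mitochondrial share below 10%. The submitters state 38066 barcodes and 17438 kept cells, a difference from the 27968 and 17312 here that was not resolved. Kept cells were normalized with sctransform 0.4.2 and clustered in Seurat 5.3.0 (80 components, resolution 0.6, 22 clusters, no integration). Of 3000 variable genes used, 25 were pathway genes. A cluster was named where at least 60% of a class's markers, and at least 3, lay 2-fold above other cells, with 5 CPM added, in over 10% of its cells. A macrophage cluster was one where no other class reached that limit and 7 of 10 macrophage markers reached 25% of their level over all cells. This limit is lenient, and the B cell cluster had 10 of 10 markers at that level. A subset name needed 40% of its markers past the 2-fold limit. The naming limits were chosen once the clusters had been looked at. Scrublet in scanpy 1.11.5 called 49 cells (0.283%), too few for a working caller, and none was taken out.

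Counts were summed by class and library and scaled to CPM. Levels have exact Poisson intervals, ratios exact conditional binomial intervals, and shares exact Clopper-Pearson intervals, all at 95%. A count of 0 allows up to 3 counts. Ratios and medians of log2 ratios were compared for carboplatin against PBS within each pump and AngII/PE against saline within each drug, which share libraries. The scripts were tested on simulated data. All 35 members may be named, and of each other pathway list the 3 compared genes with the largest log2 ratio, either way, in a macrophage contrast. Eno1b was added after its values were seen. Members and lists were chosen with earlier results of these data known. Positions come from the GENCODE annotation of mm10, which matched 32235 of 32285 gene IDs. The alternatives tried covered normalization, level and cell filters, class limits, cell weights, clusters, doublets, sex of the cells, the fold limit and thinning.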

Additional observations from a re-analysis of the deposited data

Results flagged for a closer look

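Members whose ratio went opposite ways in different cell classes, past 1.5-fold on both sides with intervals excluding 1, were searched for in every comparison. Opposite ways between paired comparisons within a class were searched for too. Only the pump comparison after PBS gave any, between classes. The values are log2 ratios, AngII/PE over saline, and the differences between classes were not tested. Tpi1 was at 0.60 in endothelial cells and -0.59 in fibroblasts. Pgk1 was at -0.77 in dendritic cells and 0.93 in endothelial cells. Slc2a3, the high-affinity glucose transporter, was at -0.86 in macrophages, -1.02 in dendritic cells and -0.67 in endothelial cells, but 1.80 in fibroblasts, where PBS saline had 8 UMIs. Ndrg1 was at 2.18 in macrophages and -1.06 in fibroblasts. Ankrd37 was at -1.81 in dendritic cells, from 9 UMIs in PBS AngII/PE and 47 in PBS saline, and 0.92 in endothelial cells.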

How the results depend on the processing

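No paired analysis was possible because each group had 1 library, and for the same reason no replicate could be left out. Values are log2 ratios or their medians. In macrophages, carboplatin over PBS under AngII/PE gave 0.18 for enzymes and 0.16 for hypoxia response genes in female-called cells. Under saline, enzymes gave 0.28 in female-called cells, -0.23 in male-called cells and -0.28 within clusters, and hypoxia response genes -0.22 in male-called cells and -0.27 within clusters. AngII/PE over saline after carboplatin gave 0.58 for enzymes with the unnamed macrophage-marker clusters added and 0.32 within clusters, and for hypoxia response genes 0.33 with no minimum level, 0.57 in male-called cells and 0.22 within clusters. After PBS it gave 0.42 for enzymes in female-called cells, 0.17 in male-called cells and -0.28 within clusters, and for hypoxia response genes 0.17 with no minimum level, 0.11 in female-called cells, 0.35 in male-called cells and 0.058 within clusters. The causes were not tested. In the other classes, whose alternatives were chosen after seeing the data, the dendritic hypoxia median under saline was -0.54 in male-called cells and the endothelial one under AngII/PE 0.12 in female-called cells. In female-called fibroblasts, the carboplatin ratios under saline had medians of 0.25 for enzymes and 0.18 for hypoxia response genes, the enzymes under AngII/PE 0.55, and the pump ratio of enzymes after PBS -0.41. Such fibroblasts were few: 45 in carboplatin AngII/PE, 12 in PBS AngII/PE, 20 in carboplatin saline and 35 in PBS saline. Male-called ones were 36, 80, 37 and 26 in the same order. Single genes past 1.5-fold that changed sign were Ndrg1 (-0.0040, carboplatin under saline) and Pgam1 (-0.022, pump after PBS) in macrophages within clusters. In dendritic cells Slc2a1 (0.25, carboplatin under saline) and P4ha1 (0.024, pump after PBS) did so in female-called cells. In female-called fibroblasts P4ha1 was at 0.16 (carboplatin under saline), Bnip3 at 0.75 (carboplatin under AngII/PE) and -0.56 (pump after PBS), and Ndrg1 at 0.12 (pump after PBS). In male-called fibroblasts Slc2a3 was at -0.38 (carboplatin under saline), Adm at 0.16 (carboplatin under AngII/PE) and Bnip3 at 0.20 (pump after carboplatin). Median-of-ratios scaling, stricter cell filters, doublet removal, the cycling cluster and clustering without pathway genes moved at most 3 of 108 macrophage gene ratios each and turned no called one round. Of the same 108, adding the unnamed clusters moved 29, ratios within clusters 70, female-called cells 72 and male-called cells 58. At 2-fold in place of 1.5-fold, members past the limit were 1 against 8 after carboplatin and 1 against 5 after PBS in macrophages between pumps, and 3 against 13 and 1 against 13 in endothelial cells. Dendritic counts were 1 against 9 and 3 against 8, and fibroblast counts 2 against 6 and 5 against 8.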
